A study of Mus musculus with 4 samples.

Results

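The genes described here are 10 plasma proteins of coagulation and fibrinolysis made in the liver: the fibrinogen chains Fga, Fgb and Fgg, the protease zymogens F2 (prothrombin), F7, F9, F10 and F11, the cofactor F5, and Plg (plasminogen). They were chosen by name, as the genes whose probes carry only 1 of these symbols in the platform annotation, and all 10 had a probe, out of 13544 genes measured. Fga had 2 probes and each of the others had 1, and all 11 probes had a value on all 4 arrays. The mice were males of the inbred strain C57Bl/6J, and their livers were compared on 4 regimens. In the order used below these were an atherogenic diet with high fat for 24 weeks, the same for 6 weeks, an atherogenic diet without the high-fat label (here called plain) for 24 weeks, and the plain diet for 6 weeks. Each array paired 1 diet RNA in Cy5 with liver RNA of chow-fed mice in Cy3. The chow was labelled with the matching duration, except on the plain 6-week array, where no duration is given. Every condition had 1 array, without a replicate error of its own, and no dyes were swapped, so a dye bias of a probe cannot be told apart from an effect of diet. The sources used here do not give the diet composition, the animals per RNA or whether arrays shared a chow sample. The p-values rest on spread between the 4 conditions and on error borrowed across genes, not on replicate arrays or animals.

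Clotting runs through a cascade in which one protease cuts the zymogen of the next. F7 with tissue factor, and F9 with its cofactor F8, activate F10, and F10 with its cofactor F5 turns prothrombin into thrombin. Thrombin then clips fibrinogen, a protein assembled from pairs of the Aα, Bβ and γ chains, into fibrin, which plasmin, the active form of plasminogen, later dissolves. Hepatocytes are the main source of nearly all of these proteins, and fibrinogen is a classical acute phase protein whose synthesis rises with interleukin-6.

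Values are log2 ratios of diet over chow within an array, so 0 means equal signal and a negative value is read as lower with diet. The labels put diet in Cy5 and chow in Cy3 on every array, and the direction was taken from these dyes, since it is not stated for the values themselves. Were the ratios deposited as Cy3 over Cy5, every sign below would turn and higher and lower would change places. They carry no expression level, so levels of different genes cannot be compared and the tissue could not be checked against hepatocyte markers by level. Every fold below rests on reading the deposited ratios as base 10 logarithms, which their spread led to and no source states. Between 27951 and 28806 probes had a value on an array, and probes spread with an SD of 0.39 and 0.37 on the high-fat arrays (24 and 6 weeks), against 0.46 and 0.53 on the plain arrays. In bulk liver RNA fewer hepatocytes and less RNA per hepatocyte cannot be told apart.

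The 3 fibrinogen genes are neighbours on chromosome 3, and their promoters are shown because Fga went the opposite way to Fgb and Fgg between the diets. Each stretch covers 250 bases before to 50 after the annotated start, 5′ to 3′ on the gene's own strand, from RefSeq on GRCm38.p6: Fga at chr3:83025903-83026202 (plus strand), Fgb at chr3:83049814-83050113 (minus strand) and Fgg at chr3:83007474-83007773 (plus strand). Capitals mark CTGGGA, the core of the interleukin-6 response element described in fibrinogen genes, on either strand.
Fga: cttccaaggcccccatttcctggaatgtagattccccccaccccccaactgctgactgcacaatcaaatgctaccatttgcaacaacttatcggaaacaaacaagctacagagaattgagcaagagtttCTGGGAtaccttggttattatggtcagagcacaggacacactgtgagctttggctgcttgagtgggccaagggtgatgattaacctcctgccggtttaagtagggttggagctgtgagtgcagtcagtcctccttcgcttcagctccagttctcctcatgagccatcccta
Fgb: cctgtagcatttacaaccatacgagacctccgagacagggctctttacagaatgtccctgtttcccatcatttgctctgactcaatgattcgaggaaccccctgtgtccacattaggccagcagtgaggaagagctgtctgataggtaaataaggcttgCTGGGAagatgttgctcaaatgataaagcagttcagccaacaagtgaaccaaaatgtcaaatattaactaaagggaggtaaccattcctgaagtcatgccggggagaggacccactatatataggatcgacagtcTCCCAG
Fgg: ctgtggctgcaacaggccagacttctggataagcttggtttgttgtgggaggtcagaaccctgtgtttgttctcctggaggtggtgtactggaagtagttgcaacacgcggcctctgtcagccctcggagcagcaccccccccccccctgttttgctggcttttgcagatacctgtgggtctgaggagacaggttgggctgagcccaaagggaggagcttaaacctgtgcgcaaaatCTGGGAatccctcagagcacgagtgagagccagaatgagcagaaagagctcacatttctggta
Counted from the annotated start, CTGGGA begins at base -121 in Fga, at -91 in Fgb with another match on the opposite strand at 45, and at -13 in Fgg. Of 32851 mouse promoter windows of the same length, 31.8% held it on either strand, as did 6 of the 9 windows found for the 10 genes (those of F2, F9 and F10 besides fibrinogen). GTTAAT, a core of the sites of the liver factor HNF1, was in 3 of the 9 (Fga, Fgb and F2), against 7.1% of all windows. TTGCNNAA, a form of the sites bound by C/EBP factors, was in 4 (Fga, Fgb, F9 and F11), against 10.8%. No matches of different motifs overlapped, and such a match is a description of letters only.

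Fga, the Aα chain, stood at 0.35 on the high-fat 24-week array and -0.22 on the high-fat 6-week array, against -0.21 and -1.25 on the plain 24-week and 6-week arrays. It was lowest on the plain 6-week array, more than 2-fold below chow. Its 2 probes, designed to different sequence records, gave -1.22 and -1.28 on that array and differed by at most 0.25 on the others. Fgb, the Bβ chain, ran the other way, at -1.26 and -1.28 on the high-fat arrays (24 and 6 weeks) against 0.19 and 0.28 on the plain arrays. The high-fat and plain arrays did not overlap for Fgb, and its values at 24 and 6 weeks nearly coincided within each diet. Fgg, the γ chain, stood at -0.71 and -1.13 on the high-fat arrays against 0.56 and -0.26 on the plain arrays, again with both high-fat values below both plain values. Fga exceeded Fgb by 1.60 and 1.06 on the high-fat arrays (24 and 6 weeks) and lay 0.40 and 1.53 below it on the plain arrays, so the order of these chains turned over between the diets.

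**Figure D1:**
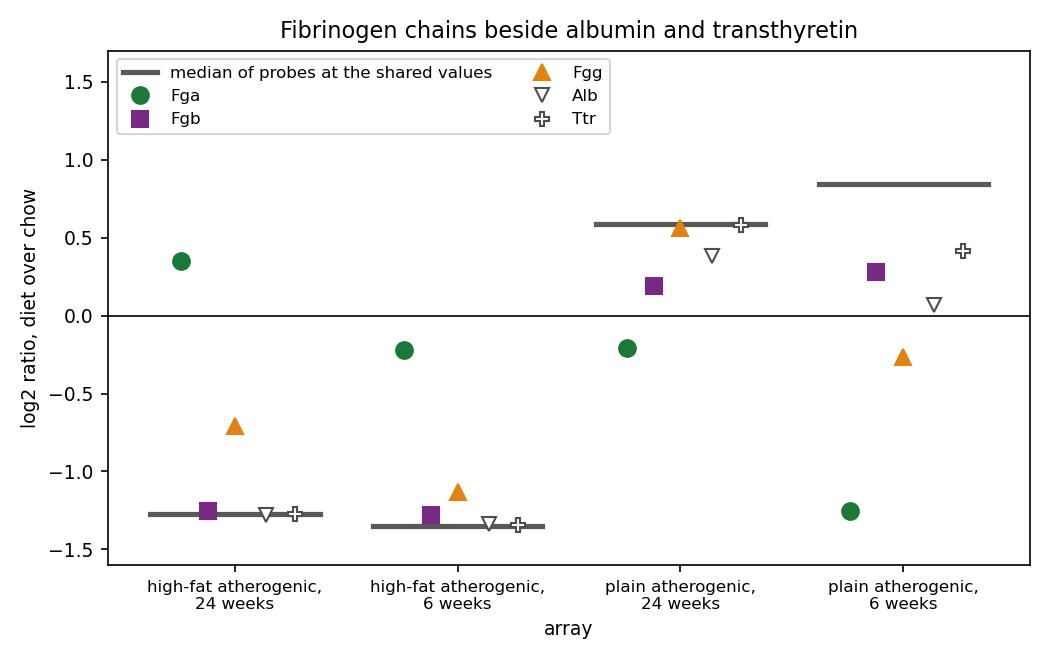
Log2 ratio of diet over chow (vertical axis) of the fibrinogen chains Fga, Fgb and Fgg, and of albumin (Alb) and transthyretin (Ttr), on each of the 4 arrays (horizontal axis); each symbol is 1 gene on 1 array. Grey lines mark the median of 12 probes at ratios shared by many probes, -1.28 and -1.35 on the high-fat arrays, on which Fgb, Alb and Ttr nearly lie while Fga stands clear. Alb is drawn as a mean of probes that disagreed on the plain arrays.

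Both high-fat arrays and the plain 24-week array hold ratios at which unusually many probes pile up, and Fgb and Fgg lie close to some of them. On the high-fat 6-week array 14 probes held 1 such ratio where neighbouring ratios would give 2.15, on the high-fat 24-week array 14 against 3.05, and on the plain 24-week array 63 against 28.2. The 12 probes within 0.01 of the shared ratio on all 3 arrays had medians of -1.28 and -1.35 on the high-fat arrays (24 and 6 weeks) and 0.59 and 0.85 on the plain arrays. Those with a gene name belonged to the abundant liver transcripts Alb (albumin), Ttr (transthyretin) and Serpina1b (an α1-antitrypsin), and to Loxl2, a collagen-crosslinking enzyme. Fgb lay only 0.02 and 0.07 above these medians on the high-fat arrays, and 0.40 and 0.56 below them on the plain arrays. Fgg was 0.56 and 0.22 above them on the high-fat arrays, and 0.03 and 1.11 below them on the plain arrays. The probes of Fga were at least 1.01 above them on the high-fat arrays. F5 lay 0.02 above the shared ratio on the plain 24-week array, but at least 1.13 from it on the high-fat arrays. By root mean square distance over the 4 arrays, the genes most like Fgb, the member farthest from 0 on average, were Alb (0.15), Serpina1e (0.20), Ttr (0.21), Dnah1 (0.21) and Cryba4 (0.27). The value of Alb is a mean of probes that disagreed on the plain arrays. They gave 0.59, -0.02 and 0.59 at 24 weeks and 0.74, -1.28 and 0.74 at 6 weeks. No Alb probe alone showed the mean that placed Alb nearest to Fgb. Signal intensities were not used here, and the part of these shared ratios in the values of Fgb and Fgg was not tested.

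F2 encodes prothrombin, the zymogen of thrombin. It stood at 0.09 and -0.47 on the high-fat arrays (24 and 6 weeks) against -0.52 and -1.09 on the plain arrays. Both high-fat values lay above both plain values, though -0.47 and -0.52 nearly met. F7, the protease that pairs with tissue factor, was below 0 on all 4 arrays, at -0.07 and -0.16 with high fat against -0.16 and -0.58 with the plain diet. F10, which cuts prothrombin, stood at 0.02 and 0.12 with high fat against -0.19 and -0.90 with the plain diet. F7 and F10 are adjacent genes on chromosome 8, and both were lowest on the plain 6-week array. F9, the protease missing in haemophilia B, stood at -0.29 and -0.17 with high fat against 0.04 and -0.43 with the plain diet, and the diets overlapped.

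F11, a protease of the contact branch, hardly differed from chow on any array, at 0.05 and 0.04 with high fat against 0.11 and 0.08 with the plain diet, a span of 0.07 that was the narrowest of the 10 genes. F5, the cofactor of F10, had its highest and lowest values on the plain arrays, 0.60 at 24 weeks and -0.85 at 6 weeks, with -0.15 and -0.06 on the high-fat arrays (24 and 6 weeks) in between. Plg, the zymogen of the fibrin-dissolving protease plasmin, stood at -0.29 and -0.58 with high fat against 0.19 and -0.32 with the plain diet. Its lowest value was on the high-fat 6-week array. Of the 10 genes 6 were lowest on the plain 6-week array, as were 30.0% of all genes, and 4 (Fgb, Fgg, F11 and Plg) on the high-fat 6-week array, as were 26.2% of all genes.

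**Figure D2:**
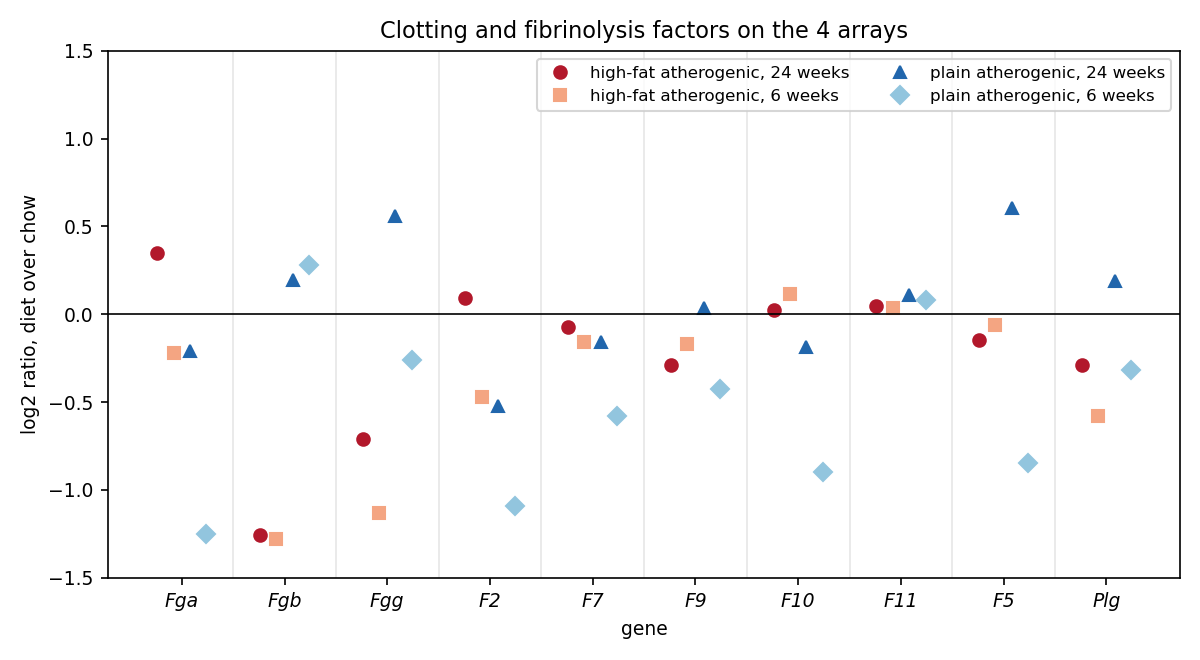
Log2 ratio of diet over chow (vertical axis) for the 10 genes (horizontal axis), with 1 symbol for each of the 4 arrays and no error bars since each condition has 1 array. The plain 6-week values of Fga, F2, F7, F9, F10 and F5 are the lowest of their genes, while Fgb, Fgg and Plg are lowest on a high-fat array.

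Array by array, the median of the 10 genes was -0.11 and -0.19 with high fat (24 and 6 weeks) and 0.07 and -0.50 with the plain diet, beside medians over all genes of -0.01, -0.01, 0.05 and 0 in the same order. At least 2-fold lower than chow was 1 of the 10 on the high-fat 24-week array (Fgb; 1.53% of all genes), 2 on the high-fat 6-week array (Fgb and Fgg; 1.32%), none on the plain 24-week array (1.28%) and 2 on the plain 6-week array (Fga and F2; 1.63%). None was 2-fold higher on any array. These counts have no test, and each rests on 1 array.

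The first comparison asked whether the genes differed from chow across the 4 regimens. None of the 10 passed an adjusted p of 0.05 in limma over all genes, where 12.1% of all genes passed, and 1 of the 10, F2, had an unadjusted p under 0.05, as did 30.8% of all genes. F2 averaged -0.50 ± 0.18 (limma SE, 4 arrays; 95% interval -0.93 to -0.07; adjusted p = 0.1195) and was below 0 on 3 of the 4 arrays. Fgb averaged -0.51 ± 0.30 (interval -1.24 to 0.21; adjusted p = 0.293), with 2 arrays on either side of 0. The means of Fgg, Fga, Plg, F7, F10, F9 and F5 lay between -0.39 and -0.11, and that of F11 was 0.07 ± 0.08 (interval -0.11 to 0.25). The median of the 10 means was -0.25, beside 0.005 over all genes, and it was -0.13 without the plain 6-week array. Without that array the mean of Fga was -0.03, that of F10 -0.02 and that of F2 -0.30. The mean of Fgb was -0.26 without the high-fat 6-week array and -0.78 without the plain 6-week array, and that of Fgg was -0.14 without the high-fat 6-week array and -0.70 without the plain 24-week array. With the 4 arrays taken as independent, the 95% interval of each gene other than Fgb left out a mean shift of over 2-fold. For Fgg the lower bound, -0.996, nearly reached it. Over all probes, arrays of the same diet type correlated at 0.83 (high-fat) and 0.73 (plain), against 0.39 to 0.57 across diet types. Such intervals can therefore be too narrow, and a 2-fold shift is not excluded by them. With diet type and duration as terms of the model 6 of the 10 passed, all lower (F2, F7, Fga, Fgb, Fgg and Plg), where 37.9% of all genes passed and 17.1% were lower, since that model takes the differences between the regimens out of the error.

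The second comparison asked how the high-fat arrays differed from the plain arrays, as high-fat minus plain within each duration. With 1 array per condition, an effect of high fat cannot be told apart from differences between arrays or their chow samples. Of the 10 genes 4 passed, where 10.8% of all genes did: F2 and Fga were higher with high fat (3.72% of all genes were higher) and Fgb and Fgg lower (7.1% were lower). Fgb differed by -1.505 ± 0.14 (adjusted p = 0.00938), a 2.84-fold lower ratio, with -1.45 at 24 weeks and -1.56 at 6 weeks. Fgg differed by -1.07 ± 0.16 (adjusted p = 0.0201), 2.10-fold lower, with -1.27 and -0.87. Fga was higher by 0.80 ± 0.16 (adjusted p = 0.0321), 1.74-fold, with 0.56 at 24 weeks and 1.03 at 6 weeks. F2 was higher by 0.62 ± 0.14 (adjusted p = 0.0378), 1.54-fold, with 0.61 and 0.62 at the 2 durations. F10 had a mean difference nearly as large as that of F2, 0.61 ± 0.20, but 0.21 at 24 weeks and 1.01 at 6 weeks, and did not pass (adjusted p = 0.0892).

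Plg (-0.37 ± 0.14) and F7 (0.25 ± 0.15) did not pass either. F5 and F9 had means near 0, 0.02 ± 0.32 and -0.03 ± 0.17, made up of opposite signs: F5 differed by -0.75 at 24 weeks and 0.79 at 6 weeks, and F9 by -0.33 and 0.26. For F11 the 95% interval ran from -0.38 to 0.27. The fit has 1 residual degree of freedom, the change of the diet difference between durations, and its error is largely borrowed across genes. The SE was nearly the same for F2, F11 and Fgb (0.138, 0.138 and 0.139), so it is not the spread of each gene alone. With duration left out of the fit none of the 10, and no gene of 13544, passed (unadjusted p under 0.05 for 2 and 3758). With each array scaled to a common spread F2 no longer passed (0.34, adjusted p = 0.133) and Plg did (-0.55, adjusted p = 0.0352), giving 1 higher and 3 lower; over all genes the split was 504 higher and 962 lower as deposited, 375 and 1195 after centring and 514 and 1566 after scaling.

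**Figure D3:**
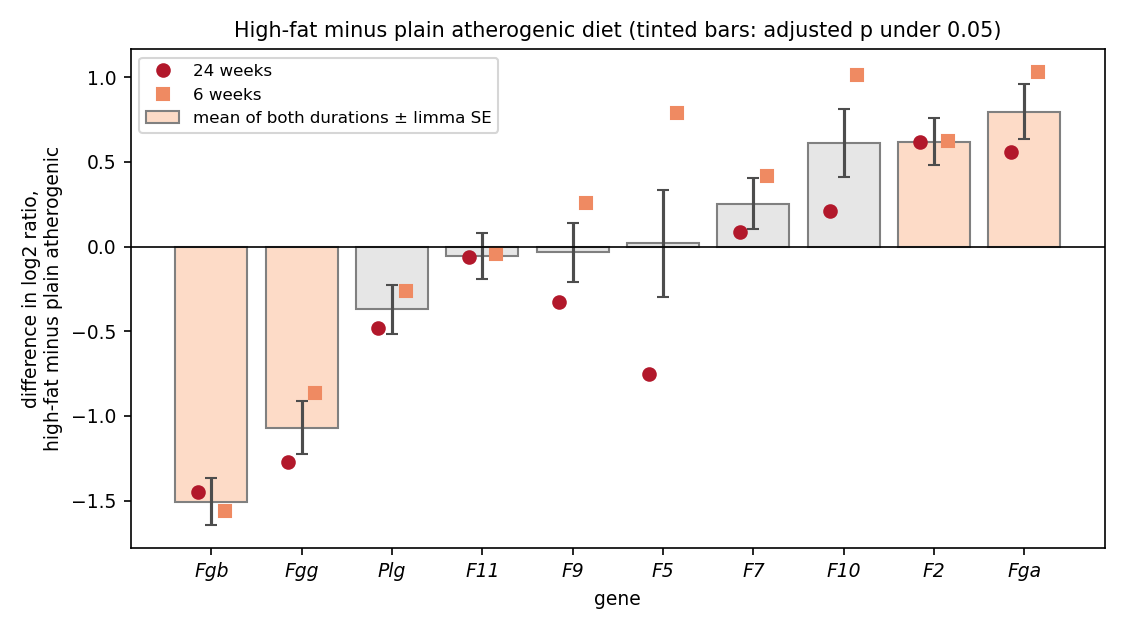
Difference in log2 ratio, high-fat minus plain atherogenic diet (vertical axis), for the 10 genes (horizontal axis) in rising order; bars are the mean over both durations with the limma SE, circles 24 weeks and squares 6 weeks, and tinted bars passed an adjusted p of 0.05. Fgb and Fgg lie below 0 and Fga and F2 above it at both durations, while F5 and F9 change sign between durations.

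Of 13 measured hepatocyte markers 8 were lower with high fat than with the plain diet, and 1, the tyrosine-degrading enzyme Fah, was higher. Of all genes 7.1% were lower and 3.72% higher. Alb differed by -1.53 ± 0.15, Ttr by -1.81 ± 0.14 and the iron carrier Trf by -1.57 ± 0.20. The markers with the largest means against chow besides Alb did not follow. Tat went the other way, by 0.72 ± 0.31, without passing, and G6pc differed by -0.13. G6pc was the 1 marker of this list that passed for diet over chow, at -0.59 ± 0.10. The list median was -0.58 and -0.84 on the high-fat arrays (24 and 6 weeks) against 0.34 and 0.05 on the plain arrays. Trf and Fah are named after their values were seen. The part of these markers in the differences of Fgb and Fgg was not tested. Without the probes within 0.0997 of the shared ratios on both high-fat arrays, which removes Fgb, 3 of the 9 remaining genes passed for high fat, Fga and F2 higher and Fgg lower. Of all 13530 genes left in this setting 10.5% passed, 490 higher and 934 lower. This setting was not planned beforehand. Its limit keeps Fgg, 0.56 and 0.22 above the shared medians on those arrays, so it cannot tell whether the shared ratios reach Fgg.

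The third comparison asked how the arrays at 24 weeks differed from those at 6 weeks. The chow of the plain 6-week array has no stated duration. With the plain diet an effect of duration therefore cannot be told apart from a difference between chow samples. None of the 10 genes passed in limma, nor did any gene (0% of all genes), while an unadjusted p under 0.05 was found for 4 of the 10 and for 1328 of 13544 genes (9.81%). The 4 were Fga, Fgg, F2 and Plg. Fga was at 0.35 and -0.21 at 24 weeks (high-fat and plain) against -0.22 and -1.25 at 6 weeks, a mean difference of 0.80 ± 0.16 (adjusted p = 0.269). For Fgg the difference was 0.62 ± 0.16 (adjusted p = 0.360), for F2 0.57 ± 0.14 (adjusted p = 0.359) and for Plg 0.40 ± 0.14 (adjusted p = 0.446). F2 differed almost equally in both diets, by 0.56 with high fat and 0.57 with the plain diet. F5 had the widest gap between diets, -0.09 with high fat and 1.45 with the plain diet. The difference of Fgb was -0.03 ± 0.14 (95% interval -0.36 to 0.29). The comparison of durations shares its arrays with the comparison of diets, so both rest on the same 4 values of each gene.

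Of 53 other genes of clotting and fibrinolysis 44 were measured, and 7 passed for diet over chow (15.9%, beside 12.1% of all genes), 5 higher (6.27% of all genes were higher) and 2 lower (5.8% were lower), with a list median of -0.06. With 1 array left out the 7 became 4 (without the high-fat 24-week or the plain 6-week array), 3 (without the high-fat 6-week array) or 2 (without the plain 24-week array). Among procoagulant factors 1 of 8 passed: Vwf, the platelet-tethering factor made by endothelium, was higher by 0.34 ± 0.08 (adjusted p = 0.0378), between 0.28 and 0.39 on all 4 arrays. Among anticoagulant proteins and inhibitors 1 of 13 passed, Apoh, the phospholipid-binding β2-glycoprotein I, at 1.09 ± 0.21.

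The plasminogen system held 4 of the 7. Anxa2, the annexin that holds plasminogen and its activator at cell surfaces, was higher by 1.78 ± 0.11 (adjusted p = 0.00126), a 3.43-fold rise, with 1.75 and 1.46 on the high-fat arrays against 1.94 and 1.95 on the plain arrays. Plaur, the urokinase receptor, was higher by 0.38 ± 0.09, while its ligand Plau, urokinase, was lower by 0.45 ± 0.09. Serpinb2, an inhibitor of urokinase, averaged -1.97 ± 0.14, 3.92-fold lower. Plg itself, the substrate of this system, did not pass. Fgl1, a fibrinogen-like protein secreted by hepatocytes, rose by 0.90 ± 0.14 (adjusted p = 0.0137), where none of the 3 fibrinogen chains passed.

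None of 8 genes of the vitamin K cycle, secretion and clearance passed for diet over chow. The largest means there were 0.37 for Vkorc1l1 and 0.33 for Nqo1, both quinone or vitamin K reductases. None of 3 thrombin receptors passed, with F2rl2 at -0.18 and F2rl3 at -0.16. For high fat against the plain diet 5 of the 44 passed, or 11.4% beside the 10.8% of all genes, of which all but F2rl3 are named after their values were seen. Klkb1 (plasma prekallikrein, the neighbour of F11 on chromosome 8) was higher by 0.65, Vkorc1, which recycles vitamin K, by 0.76 and F2rl3, a thrombin receptor, by 0.59. The C1 and kallikrein inhibitor Serping1 was lower by 0.88 and Fgl2, a membrane prothrombinase of immune and endothelial cells, by 0.84.

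**Figure D4:**
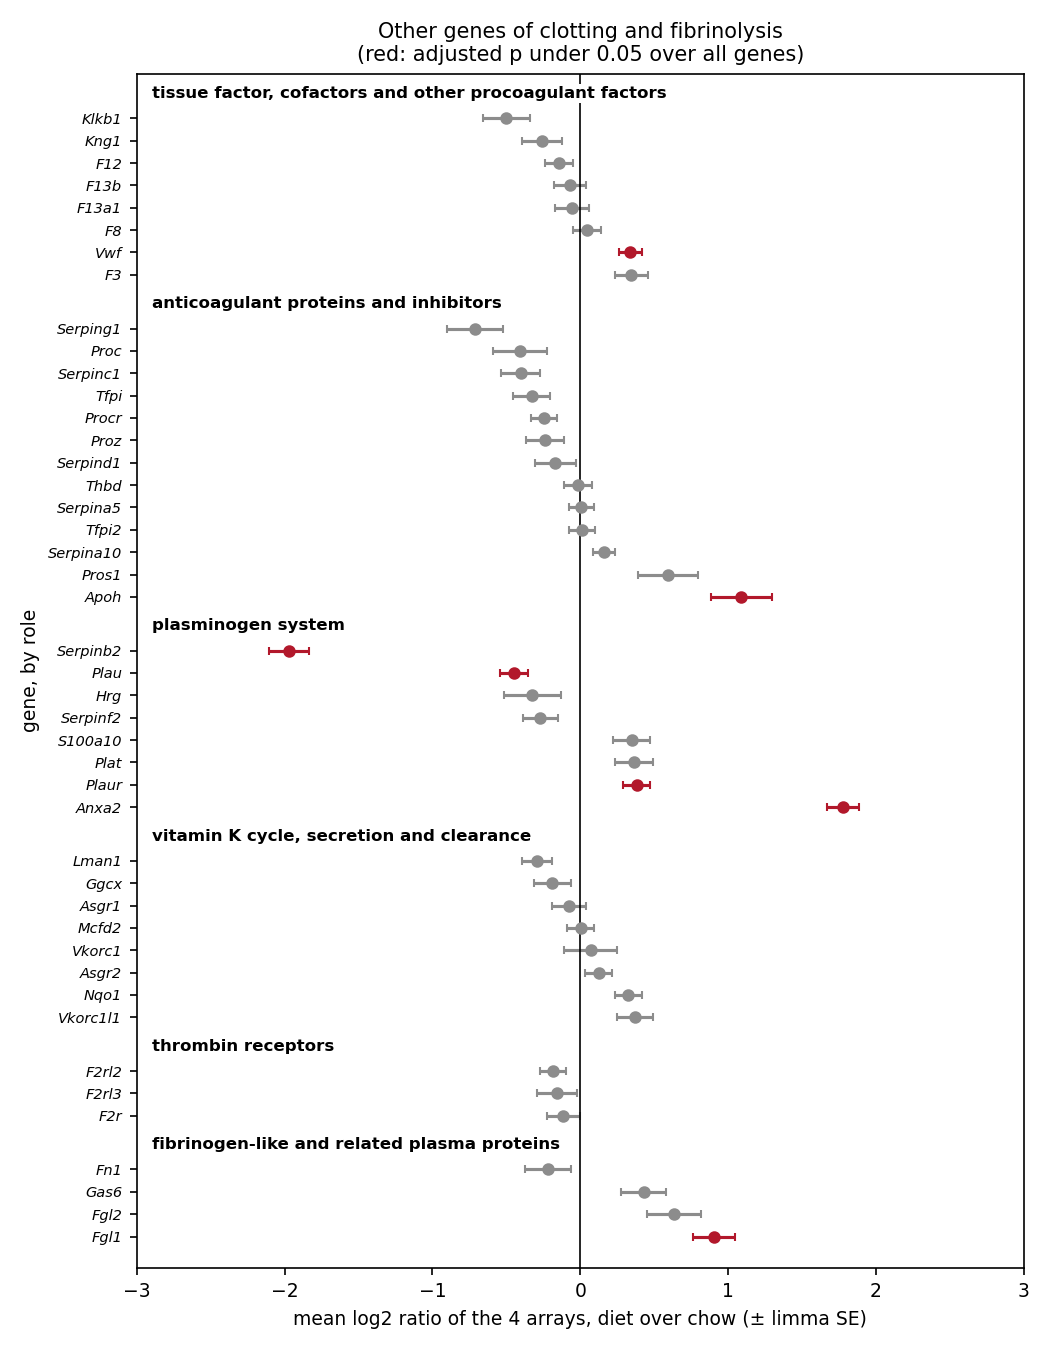
Mean log2 ratio of diet over chow across the 4 arrays (horizontal axis, bars are the limma SE) for 44 other genes of clotting and fibrinolysis (vertical axis), grouped by role; red points passed an adjusted p of 0.05 over all genes. Anxa2 at 1.78 and Serpinb2 at -1.97 stand farthest from 0.

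Acute phase genes, the class to which fibrinogen belongs, had 5 of 18 higher than chow and 1 lower. Of all genes 6.27% were higher and 5.8% lower, and these shares also stand beside the marker counts that follow. Saa3 and Saa2, serum amyloids, were higher by 1.66 ± 0.23 and 1.53 ± 0.15 and the pentraxin Apcs by 0.83 ± 0.14, while Crp, named after its value was seen, was lower by 0.56 ± 0.12. The serum amyloid Saa1, also named afterwards, averaged -0.09 and did not pass. Socs3, a feedback target of interleukin-6 signalling also named afterwards, lay at 0.02 and -0.01 on the high-fat arrays against -0.002 and -0.01 on the plain arrays. Of 10 measured macrophage markers 5 were higher, with Ctss at 2.32 and C1qb at 1.74, and 1, Vsig4, was lower at -1.33. Of 9 stellate cell and fibroblast markers 6 were higher and 1 lower. The list medians of macrophage markers were 0.51 and 0.55 on the high-fat arrays against 0.82 and 0.93 on the plain arrays, and those of fibroblast markers 0.42 and 0.73 against 0.70 and 0.58. Their part in the values of the clotting genes was not tested.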

How the data were processed

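Per the series' design text and the labels, RNA from liver was amplified, put on the AceGene Mouse Oligo Chip 30K, scanned on an Agilent G2505B, read with GenePix Pro 4.1 and LOWESS-normalized in GeneSpring 7.2 by the authors. The deposited values are signed log ratios, taken as log10 of Cy5 (diet) over Cy3 (chow); base and direction are not stated for them, and the sources used here do not name a background correction or a spot filter. They were converted to log2. Of 28845 probes 975 lacked a value on an array and were left out. Genes were named through the platform annotation and gene IDs, and probes of a gene were averaged. Tests used limma 3.58.1 in R 4.3.3 (two-sided, Benjamini-Hochberg over 13544 genes). They were the mean of 4 arrays against 0 (3 residual degrees of freedom) and an additive model of diet type and duration (1 degree). Members and lists were chosen with earlier results of these data known. Besides the 10 members, named were up to 4 passing genes per clotting role (or the 2 largest), up to 3 markers per list, by mean size, and the 5 genes nearest the member farthest from 0.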

Additional observations from a re-analysis of the deposited data

Results flagged for a closer look

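The test of the difference between the diets (limma, high-fat minus plain atherogenic) called 4 of the 10 genes, where 10.8% of all genes passed. They were Fgb at -1.505 (adjusted p = 0.00938), Fgg at -1.07 (0.0201), Fga at 0.80 (0.0321) and F2 at 0.62 (0.0378). On the high-fat arrays (24 and 6 weeks) Fgb lay only 0.02 and 0.07 above the medians of the probes at shared ratios. F2 did not pass with the arrays scaled to a common spread, and none of the 10 passed with duration left out. F10 lay above 0 on both high-fat arrays and below 0 on both plain arrays, a difference of 0.61 that did not pass (adjusted p = 0.0892). Of the other named clotting genes, Vkorc1 at 0.76 (adjusted p = 0.0291), Klkb1 at 0.65 (0.0378) and F2rl3 at 0.59 (0.0427) were higher with high fat, and Serping1 at -0.88 (0.0234) and Fgl2 at -0.84 (0.0222) were lower. The gap of the most distant array to its nearest neighbour, over the range of the 4 arrays, stayed under Dixon's 95% critical value for 4 samples for every clotting gene named. F7 came closest, at 0.82 for the plain 6-week array, followed by F10 at 0.70 on that array. The 4 arrays are different conditions and not repeats, and a gene split by diet, such as Fgb (0.06), cannot be flagged this way. A value under the limit therefore does not show that no single array drives a result.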

How the results depend on the processing

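No member passed for diet over chow under any alternative other than the additive model (6 of 10) and duration as a random block (1, F2). For added high fat the 4 calls became 0 with duration left out of the model. Over all genes the 1634 calls for diet over chow became 2896 at an adjusted p of 0.10, 5132 in the additive model, 4447 with duration and 403 with diet type as a random block, and 284 to 1169 when 1 array was left out (284 without the plain 24-week array). The 7 calls in the clotting list became 13, 25, 22 and 2 under those settings and 2 to 4 with 1 array left out. The mean of F5 for diet over chow ran from -0.351 to 0.133 with 1 array left out, positive only without the plain 6-week array. Its sign also turned for high fat after centring (-0.035) or scaling (-0.13), and that of F11 for duration after centring (-0.0050); none of these passed. Read as natural or base 2 logarithms, the 2.84-fold difference of Fgb would be 1.57-fold or 1.37-fold. No paired analysis was possible because each condition had 1 array and so no replicate numbers to match; arrays were matched by duration or diet type only. The number of arrays limits precision.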

Other observations

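Of 11 measured liver transcription factors that act on hepatocyte promoters, none was higher than chow and 1 was lower, the pioneer factor Foxa1 at -0.42 ± 0.09. Of all genes 6.27% were higher and 5.8% lower. Foxa3, a relative of Foxa1, at -0.34 and the xenobiotic receptor Nr1i3 at -0.41 did not pass. Platelet genes had 2 of 9 higher, the chemokine Ppbp at 0.47 ± 0.10 and the adhesion receptor subunit Gp5 at 0.36 ± 0.09, with Pf4 at 0.51 ± 0.14 not passing. The platelet list median was 0.009, and Gp1bb, Gp9, Treml1 and Selp averaged below 0 without passing. None of 11 endothelial markers passed, with the largest mean, 0.23 for Pecam1, beside the 0.34 of the endothelial factor Vwf.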
